A study of Mus musculus with 4 samples.

Results

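Cd24a encodes the mouse CD24 protein, also called heat-stable antigen, and was read here by 3 of the 45101 probe sets of an oligonucleotide array. The members were taken by name alone: every probe set that the platform annotation assigns to Cd24a and to no other gene. No further probe set named Cd24a together with a second gene. RNA came from the left side of the mouse diaphragm, the main muscle of breathing, in which the motor axons contact the fibres along a narrow band. It was hybridised to 4 one-colour arrays, 2 from muscle that holds the synapses (the synaptic region) and 2 from muscle away from them (the non-synaptic region). The labels give no strain, age, sex, genotype or treatment for either region, and they do not say whether the arrays came from separate animals, so the p-values below rest on a spread between arrays that may be technical only.

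CD24 is a short protein that carries a large mass of sugar and is held in the outer leaflet of the cell membrane by a glycosylphosphatidylinositol (GPI) lipid anchor. Having no part inside the cell, it is thought to signal through Src family kinases at the inner face of the membrane, and its sugars are bound by selectins and Siglecs. In the mouse it is known from immature B cells, neutrophils, red blood cells and their precursors, epithelia and developing neurons. Published work in mice has also placed it at the neuromuscular synapse and linked its loss to impaired synaptic transmission. That work may include these arrays, and the gene was picked with earlier results of these data known.

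In the tissue as sampled, all 3 probe sets gave a higher Cd24a signal in the synaptic region, by between 3.48-fold and 4.17-fold. For each of them the regions did not overlap. In pieces of tissue, more cells of a type that makes the transcript and more transcript per cell cannot be told apart. The brightest, 1448182_a_at, stood 16th of 12553 genes by the size of the difference. None of the 3 passed the test adjusted over all 27026 probe sets in the fit that takes the arrays as independent, in which only 3 probe sets did.

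Probe set 1448182_a_at had intensities of 23679 and 20107 on the 2 synaptic arrays and of 5048 and 5413 on the 2 non-synaptic arrays. The arrays of a region lay close together, and the lowest synaptic value was well above the highest non-synaptic one, by 1.89 on the log2 scale. The mean intensity was 21893 ± 2525 (SD, n = 2 arrays) for synaptic RNA and 5230 ± 258 for non-synaptic RNA. The log2 difference, synaptic minus non-synaptic, was 2.06 ± 0.18 (SE of the moderated limma fit), a ratio of 4.17 with a 95% interval from 3.02 to 5.77. Its unadjusted limma p was 7.79e-05, the 13th smallest of all probe sets tested, and its Benjamini-Hochberg adjusted p was 0.162.

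Probe set 1437502_x_at had intensities of 9520 and 9151 on the synaptic arrays and of 2402 and 2114 on the non-synaptic arrays. The suffix x marks, by the naming of this array type, a probe set in which some probes also match other sequences, and this one has no reference accession in the annotation. The log2 difference was 2.05 ± 0.19, a ratio of 4.14 with a 95% interval from 2.94 to 5.84 (limma adjusted p = 0.183). The 4 differences between a synaptic and a non-synaptic array ran from 1.93 to 2.17 here and from 1.89 to 2.23 for 1448182_a_at.

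Probe set 1416034_at was the uneven one of the 3. Its intensities were 6591 and 13894 on synaptic replicates 1 and 2, and 1938 and 3891 on non-synaptic replicates 1 and 2. The groups did not overlap, but the arrays of a region stood 1.08 and 1.01 apart on the log2 scale, and in both regions the array numbered 2 was the higher. A gap of at least that size, with the array numbered 2 higher in both regions, was found in 840 of the tested probe sets, or 3.11%. The log2 difference was 1.80 ± 0.49, a ratio of 3.48 with a wide 95% interval from 1.46 to 8.30 (limma unadjusted p = 0.0138, adjusted p = 0.9999). Differences between 1 synaptic and 1 non-synaptic array ran from 0.76 to 2.84 for this probe set. Both ends came from arrays of unlike number, and same-numbered arrays differed by 1.77 and 1.84.

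**Figure D1:**
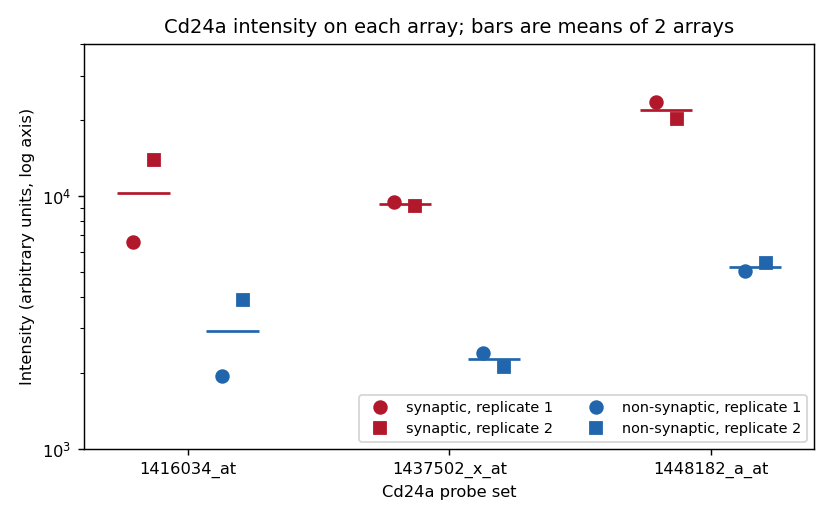
Intensity of each Cd24a probe set (log axis, arbitrary units) on the 4 arrays, red for synaptic and blue for non-synaptic, circles for replicate 1 and squares for replicate 2, with bars at the mean of 2 arrays. For each probe set both red points lie above both blue points; those of 1416034_at are 1.08 and 1.01 log2 units apart within a region.

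The probe sets thus gave nearly the same size of difference from different levels. The 2 tightest differed from each other by 0.01 on the log2 scale in their regional difference, and 1416034_at was smaller than 1448182_a_at by 0.26, well within its own standard error. With 2 arrays against 2, no exact permutation test of that gap can give a p below 0.333, so none was run. All 3 probe sets read the same 4 RNA samples and are not replicates of one another. Regions apart in the higher direction were seen in 10% of all probe sets tested, and regions apart together with a difference of at least 2-fold in 0.57%. At an adjusted p under 0.05, 0.0037% of probe sets were called higher and 0.0074% lower, which is 1 and 2 probe sets. Of the Cd24a probe sets, 0 of the 3 were called by limma, against 3 of 3 at an unadjusted p under 0.05, which 0.666% of all probe sets reached in the higher direction.

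The Cd24a signal was well clear of the dim end of the arrays in both regions. Its lowest value, 1938 for 1416034_at, was 12.2 times the floor of 159 to which dim values were raised, and all 3 probe sets passed the filter on low signal. On the 2 synaptic arrays 1448182_a_at was brighter than 96.7% and 96.4% of the 45037 probe sets that are not controls, and on the 2 non-synaptic arrays brighter than 85.0% and 85.7%. When each gene was read from its brightest probe set, Cd24a ranked 917th of 12553 genes by synaptic signal and 4121st by non-synaptic signal. Probe sets bind their targets with different strength, so these ranks describe the signal and not the number of transcripts. The ranks were narrow within a region, at 898 and 967 on the synaptic arrays and at 4284 and 3999 on the non-synaptic arrays.

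By the size of the regional difference, 15 genes that passed the filter stood above Cd24a (its rank with no filter was 20), and the regions were apart for all 15. Only 1 of them, Mbp, which encodes myelin basic protein, had a higher mean signal than Cd24a. Kcna1, a potassium channel subunit, stood above it at 2.08 ± 0.28, which differs from Cd24a by less than its standard error. Next to Cd24a stood Pou3f1, a POU-domain transcription factor, with a lower bound of 2.08, and Egfl8 with a lower bound of 2.005, since 1 non-synaptic array of each was at the floor. Among the 501 genes nearest in mean signal, Cd24a itself included, Cd24a had the largest difference, where the median was 0.02. By unadjusted p it was 7th of all genes and 5th of those with a positive difference. Compared on 1 synaptic and 1 non-synaptic array at a time, its rank by difference was 19, 37, 39 and 42. The rank was 35 without non-synaptic replicate 1 and 28 without non-synaptic replicate 2.

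**Figure D2:**
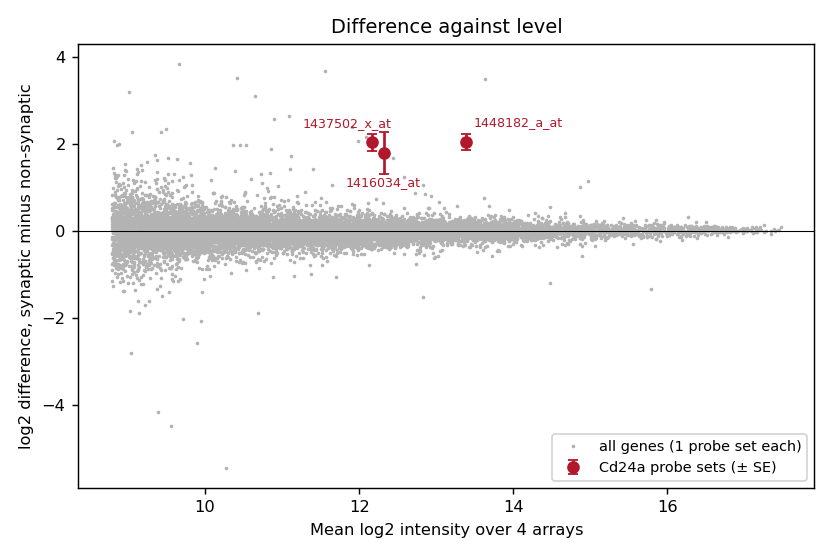
Log2 difference between the regions (vertical) against the mean log2 intensity over the 4 arrays (horizontal), with 1 grey point for each of 12553 genes and the 3 Cd24a probe sets in red with their standard errors. The red points lie between 1.80 and 2.06, above nearly all genes of like signal.

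The gene whose pattern over the 4 arrays was nearest to that of Cd24a was Chrna1, the alpha subunit of the muscle acetylcholine receptor. Likeness was measured as the Euclidean distance between log2 values after each gene's own mean was taken off, over 4 arrays, with 1448182_a_at for Cd24a. The distance to Chrna1 was 0.13, smaller than the 0.24 to the second Cd24a probe set, 1437502_x_at, while 1416034_at lay at 1.16. Chrna1 had intensities of 9702 and 8633 on the synaptic arrays and of 2345 and 2343 on the non-synaptic arrays, a log2 difference of 1.97 ± 0.19 (limma adjusted p = 0.200).

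Next came Crym, a thyroid hormone binding protein, at a distance of 0.36 with a log2 difference of 1.90 ± 0.24. Ufsp1, a protease of the UFM1 system, followed at 0.40, Cnp, a myelin-associated phosphodiesterase, at 0.43, and Etv5, an ETS transcription factor, at 0.46. Bcas1, a gene known from myelinating glia, lay at 0.47 and Ache, the acetylcholinesterase that ends transmission, at 0.54. Kcna1 at 0.56, Arhgap19 at 0.57 and Pou3f1 at 0.58 complete the 10 nearest. For each of these 10 both synaptic arrays were above both others, with differences from 1.68 for Cnp to 2.58 for Ache. That follows from their choice by likeness to Cd24a on these same arrays and is no separate result. The list holds genes known from the muscle side of the synapse and genes known from Schwann cells, and distance over 4 arrays does not separate the sets.

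**Figure D3:**
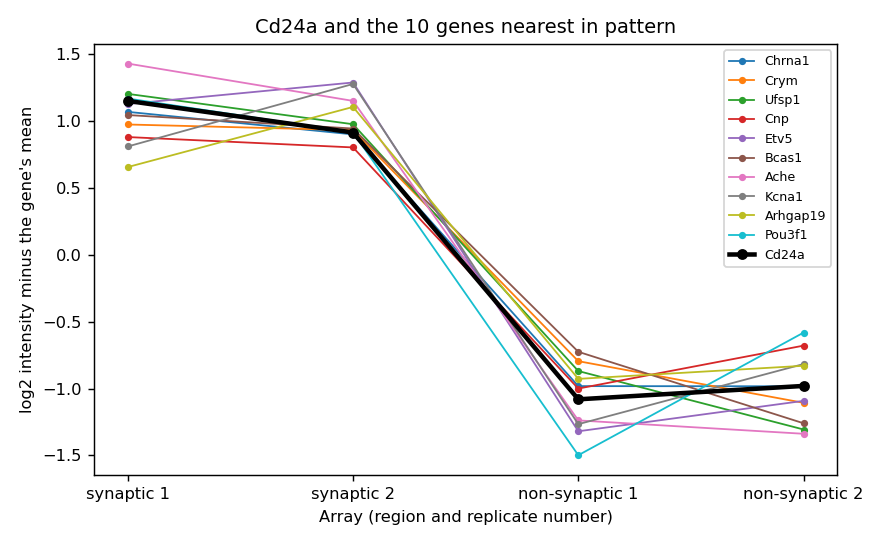
Log2 intensity less each gene's own mean over the 4 arrays (vertical) on the 2 synaptic and 2 non-synaptic arrays (horizontal), for Cd24a (black, probe set 1448182_a_at) and its 10 nearest genes; lines only join the values of a gene. The line of Chrna1, at a distance of 0.13, runs closest to that of Cd24a. All genes are high on both synaptic arrays, which follows from their choice by likeness to Cd24a.

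Other genes known from the muscle side of the synapse gave a mixed picture beside Cd24a. Of 24 genes on this list 23 were annotated on the array, and 8 of the 23 had the regions apart and were at least 2-fold higher in the synaptic region, where 1.13% of all genes, with no filter on signal, met that rule. The list's median difference was 0.32, against 0 over all genes, and 0 of its members were called by limma over all probe sets, with 7 of the 18 that entered the test higher at an unadjusted p under 0.05, as were 0.836% of all genes tested. Beside Chrna1, the larger values were 3.11 ± 0.66 for Chrne, the epsilon subunit of the adult receptor, 2.58 ± 0.23 for Ache and 2.41 ± 0.21 for Etv5. The 3 measured probe sets of Etv5 ran from 1.43 to 2.41. Nes, an intermediate filament protein, differed by 1.06 ± 0.18. Prkar1a, which regulates protein kinase A, differed by 1.02 ± 0.24, with its other probe sets as low as 0.12 and as high as 1.44. The second measured probe set of Nes gave 0.30. The ETS factor gene Etv4 and the fetal receptor subunit Chrng, both under the filter, had synaptic intensities of 2073 and 710 and of 361 and 346. Their non-synaptic arrays read 97 and 69 and 82 and 94, all under the floor.

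Core components of receptor clustering were nearer to 0. Musk, the receptor tyrosine kinase that organises the synapse, differed by 0.28 ± 0.32, its co-receptor Lrp4 by 0.32 ± 0.21, and Rapsn, the protein that clusters acetylcholine receptors, by 0.005 ± 0.24. Utrn, the dystrophin relative utrophin, differed by 0.39 ± 0.23 and the receptor subunit Chrnb1 by 0.03 ± 0.23. Dok7, an activator of Musk, was the lowest of the list at -0.54 ± 0.36, with its second probe set at 0.12. The ETS factor subunits Gabpa and Gabpb1 differed by 0.10 ± 0.21 and -0.03 ± 0.22, and the synaptic laminin chain Lamb2 by 0.05 ± 0.20. The neuregulin receptor Erbb3, which Schwann cells make as well, differed by 0.63 ± 0.23 and its partner Erbb2 by -0.32 ± 0.30. Syne1, which anchors nuclei under the synapse, differed by 0.17 ± 0.18. Chrnd, Colq and Erbb4 lay below the filter, with 0 arrays above 534. The receptor subunit gene Chrnd read 121 and 273 on the synaptic arrays against 57 and 69 on the non-synaptic arrays, with 3 arrays at the floor.

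Of 7 published binding partners of CD24, 6 were annotated, with a median of 0.14. The regions were apart for 2 of them in the higher and for 1 in the lower direction. Over all genes, with no filter on signal, the shares were 10.7% and 9.71%. Ncam1, a neural cell adhesion molecule that is also made by muscle, differed by 0.47 ± 0.27, with intensities of 1832 and 2450 on the synaptic and of 1369 and 1704 on the non-synaptic arrays. The adhesion molecule L1cam differed by 0.26 ± 0.24, the sialic acid binding receptor Siglecg by 0.18 ± 0.44 and the contactin Cntn2 by -0.04 ± 0.38, with its second measured probe set at 0.64. Selp, which encodes P-selectin, lay below the filter and ran the other way, at 172 and 351 on the synaptic arrays against 568 and 670 on the non-synaptic arrays. It was the 1 partner with the regions apart and at least 2-fold lower, where 0.863% of all genes were. Sele, which encodes E-selectin, was between 10 and 227 on all 4 arrays. Only 4 of these 6 genes entered the limma fit, without Selp and Sele, and 0 of the 4 were called over all probe sets. Of these 4 genes 0 had an unadjusted p under 0.05, near the 0.836% of all genes tested in the higher direction.

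Of the Src family kinases and their regulators, Src itself differed by 1.001 ± 0.40, with synaptic intensities of 959 and 1112 and non-synaptic intensities of 700 and 380. The regions were apart, the non-synaptic arrays were spread widely, and it did not pass (limma unadjusted p = 0.0539). Its second probe set gave 0.73. Fyn, the brightest of the 6 annotated members, differed by 0.20 ± 0.18 and Csk, the kinase that holds the family inactive, by -0.18 ± 0.21. The median of the list was -0.03.

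Genes of the machinery that anchors and glycosylates proteins like CD24 had differences near 0 in most cases. The 26 annotated genes of GPI anchor synthesis had a median of -0.02, and 0 of them had the regions apart with a 2-fold difference in either direction, where 1.13% of all genes were in the higher and 0.863% in the lower direction, so that a count of 0 is near the background. The largest sizes among the named members were -0.61 ± 0.35 for Pigm, the first mannosyltransferase of the pathway, and -0.44 ± 0.30 for Pgap1, which remodels the anchor, both with the synaptic arrays below the others. Pigp, the brightest, differed by 0.14 ± 0.16. The 23 genes of mucin-type O-glycan and sialylation enzymes had a median of -0.08, also with 0 set apart by at least 2-fold, again near those shares of 1.13% and 0.863%. St3gal6, a sialyltransferase, differed by -0.36 ± 0.18 and Galnt2, which starts O-glycans and was the brightest, by -0.01 ± 0.21. The limma fit held 24 of the genes of GPI anchor synthesis and 19 of the glycan enzymes. Of these 0 were called over all probe sets, and 0 had an unadjusted p under 0.05. The latter is near the 0.836% of all genes tested that had such a p in the higher direction.

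Of 43 other GPI-anchored proteins on the list 41 were annotated, with a median of 0.05, and 0 had the regions apart with a difference of at least 2-fold, a count near the background of 1.13% higher and 0.863% lower. The largest positive difference among members that entered the test was the 0.47 of Ncam1, which has a GPI-anchored form, followed among those named by Alpl, an alkaline phosphatase, at 0.42 ± 0.23. Folr2, a folate receptor of macrophages, was the lowest at -0.63 ± 0.29, and the brightest, Hjv (hemojuvelin), differed by -0.10 ± 0.15. The smallest Cd24a value was 1.80. By limma 0 of the 40 members that entered the test were called over all probe sets, and 0 had an unadjusted p under 0.05. Of all genes tested 0.836% had such a p in the higher direction, so a count of 0 is near that share.

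Schwann cell markers moved in the same direction as Cd24a. All 15 annotated markers had a positive difference, 14 had the regions apart and 8 were also at least 2-fold higher, with a median of 1.10; 10.7% of all genes had the regions apart in this direction. Their summed intensity was 119809 and 134078 on the synaptic arrays and 40192 and 41488 on the non-synaptic arrays. Mbp was called by limma over all probe sets (a difference of 3.50 ± 0.17, adjusted p = 0.0325). Its 8 measured probe sets ran from 0.23 to 3.82. Ncmap, a myelin membrane protein, at 3.54 ± 0.26 and Pmp22, a peripheral myelin protein, at 1.16 ± 0.15 were not called. The calls over all probe sets, Mbp included, were lost when either non-synaptic array was left out. The part of Schwann cells in the Cd24a result was not tested. The 12 annotated axon and neuron markers had a median of -0.06, and 0 had a 2-fold difference with the regions apart, near the background of 1.13% higher and 0.863% lower. Only 3 of these 12 passed the filter on low signal, so for most of them a difference could hardly be seen.

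Markers of blood cells known to carry CD24 had medians near 0. Of 7 annotated B cell markers the median was 0.02, and the defining genes Cd79a and Cd79b, below the filter, read between 150 and 551 on all arrays. The immunoglobulin gene Ighm was at 10875 on synaptic replicate 1 and at 889 on synaptic replicate 2, against 2444 and 1280 on the non-synaptic arrays. The 5 measured probe sets of Ighm had differences from -0.46 to 0.81. The summed B cell signal, with Ighm included, was 13905 and 4903 on the synaptic arrays and 6008 and 4989 on the non-synaptic arrays. The 8 neutrophil markers had a median of -0.07 and a summed intensity of 6041 and 4782 on the synaptic and of 7080 and 5299 on the non-synaptic arrays, with Camp at the floor on all 4 arrays. The 6 markers of red blood cells and precursors had a median of -0.01 and sums of 5861 and 4934 against 6930 and 5557, with Hemgn at the floor on all 4 arrays. Alas2 alone made up 4546 and 3352 of the synaptic sums and 5161 and 4121 of the non-synaptic sums. Only 2 of these 6 markers passed the filter on low signal, and of the neutrophil markers 5 did. The part of blood cells in the Cd24a result was not tested.

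Epithelial and mesothelial markers, which the surface of the diaphragm can bring in, had a median of -0.15 over 10 genes. The regions were apart for 0 of them, against 10.7% of all genes in the higher and 9.71% in the lower direction. Epcam differed by -0.85 ± 0.57, and the mesothelial gene Upk3b, the brightest, by -0.06 ± 0.18. Cdh1, below the filter, went the other way at 0.93, with 3 arrays at the floor. The 9 satellite cell and myoblast markers had a median of -0.11, and the largest value was 0.54 ± 0.32 for Calcr. Fat cell markers ran the other way from Cd24a: 6 of 9 were at least 2-fold lower with the regions apart, as were 0.863% of all genes, and their median was -1.50. Adipoq, which encodes adiponectin, was called lower by limma over all probe sets (adjusted p = 0.0325). Lpl, the brightest of the fat cell markers, differed by 0.05 ± 0.15 with the regions overlapping.

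**Figure D4:**
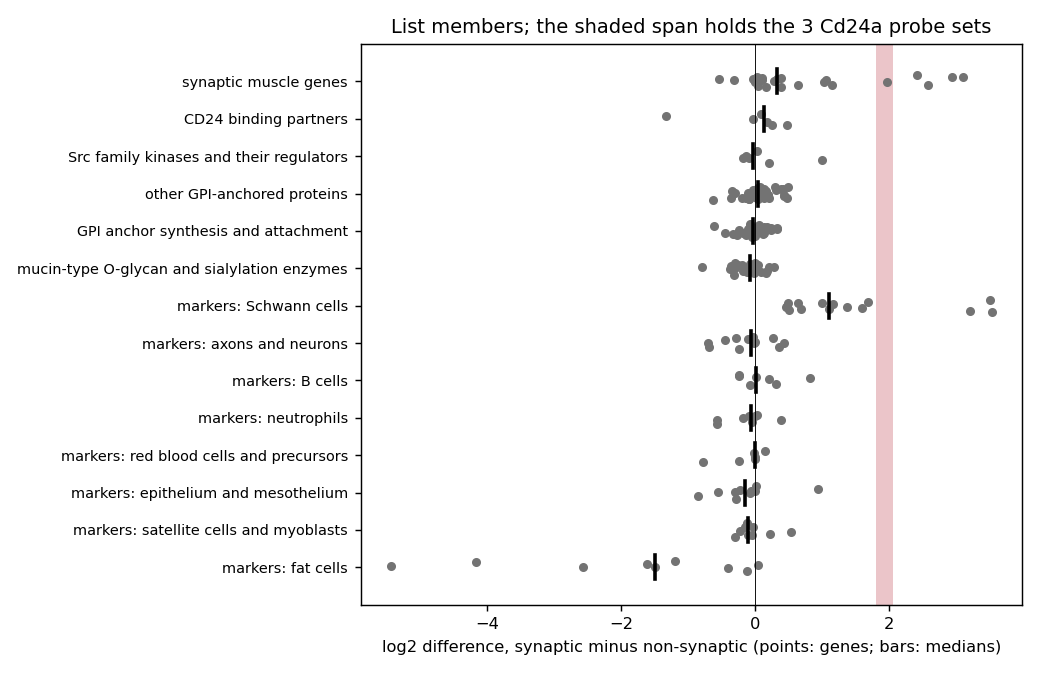
Log2 difference between the regions (horizontal) for the annotated members of each gene list, 1 point per gene with black bars at the list medians, and a shaded span from 1.80 to 2.06 that holds the 3 Cd24a probe sets. Only the lists of synaptic muscle genes and Schwann cell markers have points at or above the span; the Schwann cell median is 1.10 and the fat cell median -1.50.

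The genes next to Cd24a on chromosome 10 had differences near 0 or below. Mtres1, a mitochondrial transcription rescue factor and the nearest protein-coding gene on one side, had intensities of 28033 and 26777 on the synaptic arrays and of 26115 and 25112 on the non-synaptic arrays, a difference of 0.10 ± 0.15. Bend3, the next beyond it, differed by -0.30 ± 0.31. On the other side Qrsl1, a subunit of the mitochondrial glutamyl-tRNA amidotransferase, differed by -0.03 ± 0.20 and Rtn4ip1 by 0.12 ± 0.29. For Bend3, Qrsl1 and Rtn4ip1 the regions overlapped, and none of the 4 passed the limma test.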

How the data were processed

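The authors deposited linear intensities, 1 per probe set, for 4 arrays, with summary and scaling not given in the sources used here. Every array had the same 2% trimmed mean, 2500, so the scaling was kept; it hides any change common to most transcripts. Median intensities ran from 658 to 769. Values under 159, the 20th percentile, were raised to it before log2 was taken, which put 18.7% to 21.3% of probe sets per array at the floor. Control probe sets and those with a mean log2 under 8.79, the 40th percentile of means, were left out, leaving 27026 probe sets. Of 45101 probe sets 34958 have 1 gene in the platform annotation, 932 several and 9211 none; symbols were updated through Entrez identifiers with RefSeq tables of GRCm38.p6 for 34754, and that assembly served only for names and neighbours. A gene was read from its brightest probe set.

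Tests used limma 3.58.1 under R 4.3.3 (lmFit, eBayes with intensity trend, 2-sided, Benjamini-Hochberg over all probe sets tested, threshold 0.05; 2 residual degrees of freedom, prior worth 3.18). The number of arrays limits the precision. Simulated data, with noise independent between arrays, served to check the estimated sizes of differences and not the p-values. List counts and medians use all annotated members with no filter, where floored values understate differences. The genes named are the members of the lists of synaptic muscle genes and binding partners, 2 neighbours a side and the 10 nearest patterns. From each other list the brightest member and up to 3 of lowest unadjusted p were eligible, and not all of these are named above. Egfl8, Cd79a, Cd79b, Camp, Hemgn and Cdh1 were chosen after their values were seen. The members and lists were chosen with earlier results of these data known. Alternatives were other normalizations, filters, floors, variance priors and thresholds, a gene mean, the replicate number as a block and leaving out each array.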

Additional observations from a re-analysis of the deposited data

How the results depend on the processing

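The Cd24a differences stayed positive in all 14 alternative settings, from 1.94 to 2.18 for 1448182_a_at, from 1.96 to 2.14 for 1437502_x_at and from 1.26 to 2.34 for 1416034_at, the extremes coming from leaving out 1 array. With the replicate number as a block (replicate block) the sizes were the same, 2.06, 2.05 and 1.80, and all 3 passed (limma adjusted p = 2.45e-05, 3.62e-05 and 5.80e-05), with 62 probe sets higher and 20 lower in all. No other setting gave a call for Cd24a. The number is only read from the titles, which say nothing of a shared animal or day; as a hint from the data, deviations of same-numbered arrays from their region means correlated at 0.624, and same-numbered arrays lay closer (median absolute log2 difference 0.206 and 0.161) than arrays of a region (0.353 and 0.300).

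Over the whole table, 1 probe set was higher and 2 were lower. The higher count was 5 with median centring, 3 with a filter at the 60th percentile, likewise 3 when the floor was the 40th percentile, and 6 at an adjusted p under 0.10; both counts were 0 with no filter, no intensity trend or an unmoderated test. Over the 4 fits that each leave out an array, the higher count ran from 0 to 5 and the lower count from 0 to 3, with 0 in all without either non-synaptic array. The rank of Cd24a by difference was 10 with the filter at the 60th percentile, where fewer genes were ranked, and from 15 to 35 in those 4 fits: 35 without non-synaptic replicate 1 and 28 without non-synaptic replicate 2. The cause of the other changes was not tested.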
